A study of Mus musculus with 16 samples.

Results

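The 9 genes described here, Cdh5, Pecam1, Cldn5, Esam, Ocln, Tjp1, Jam2, Jam3 and F11r, encode proteins of the junctions between endothelial cells (ECs). They were taken by symbol from a table of read counts for 55414 genes, and all 9 were among the 15693 genes with enough reads to be tested. The table holds RNA sequencing of mouse lung ECs (MLECs) from 4 independent mice of the C57BL/6 background that carried Eng fl/fl, Rosa26-CreERT2 and the Immorto transgene, which keeps cells dividing in culture. Cells of each isolation were treated in vitro either with vehicle (Ctrl) or with 4-OH-tamoxifen, which activates the recombinase and deletes Eng (KO). Eng encodes endoglin, a co-receptor of ECs that binds the ligand BMP9.

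After overnight serum starvation, Ctrl cells received PBS or sENG(M):BMP9, a complex of BMP9 with the monomeric soluble ectodomain of endoglin. KO cells received PBS or pro:BMP9, in which BMP9 is bound to its prodomain. Both forms were given for 90 minutes at a growth factor domain concentration of 0.2 ng/ml. Each of the 4 combinations was sequenced in 4 libraries, and every isolation contributed 1 library to each group. All cells had been expanded in medium with serum, heparin, interferon-gamma and SB431542, an inhibitor of the TGF-beta type I receptor ALK5. Interferon-gamma, SB431542 and 4-OH-tamoxifen were left out of the medium from seeding onwards, before the starvation. Some features limit the design. The form of the ligand changed together with the genotype. The sENG(M):BMP9 complex was given with soluble endoglin in large excess, and no group received soluble endoglin without BMP9. Loss of Eng came with exposure to 4-OH-tamoxifen. The cells had been purified on beads against CD31, the product of Pecam1, and then against ICAM2.

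Adjacent ECs are held together by adherens junctions, in which VE-cadherin (Cdh5) binds its counterpart on the neighbouring cell and is linked to actin through catenins. Tight junctions seal the space between the cells with claudins and occludin, which are tied to actin by scaffold proteins such as ZO-1. PECAM-1, ESAM and the junctional adhesion molecules (JAMs) are immunoglobulin-like proteins of the same border, and leukocytes use several of them when they cross the vessel wall.

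Library totals lay between 14869115 and 17242117 counts. Eng itself was lower in KO than in Ctrl cells with PBS in all 4 isolations (log2 fold change -3.15, SE 0.108, adjusted p = 2.69e-12). Some Eng reads remained in KO cells. The mean count was 7303 with PBS and 10544 with ligand in Ctrl cells, and 831 with PBS and 1842 with ligand in KO cells. Id1, an early target of BMP signalling, rose with ligand in both genotypes (log2 fold change 2.51 in Ctrl and 2.55 in KO). All 10 endothelial markers examined were detected, with a summed level of 1622 to 3269 CPM (counts as a share of the library, scaled to a common size by TMM). Lyve1, often used as a lymphatic EC marker, was also abundant (3036 to 5712 CPM). The other lymphatic markers listed were lower: Flt4 (386 to 1269 CPM), Pdpn (12.8 to 161 CPM) and Prox1 (6.34 to 66.1 CPM). Of 10 epithelial markers 4 were tested and the list summed to 63.0 to 231 CPM, mostly from Krt18 (46.0 to 177 CPM) and Krt19 (4.85 to 79.5 CPM), while Sftpc had no count and Epcam 19 counts in all 16 libraries together. Fibroblast markers summed to 68.6 to 77.2 CPM in isolation 2 and to 335 to 637 CPM in the other isolations.

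The junction genes spanned a wide range of levels. On the length-corrected scale (RPKM, which divides the CPM by the gene's length in kilobases), Cdh5 was the highest of the 9 at 501 ± 114 (SD over 16 libraries) and ranked 41st among the 15693 tested genes. Pecam1 followed at 223 ± 67.7 RPKM, and Cdh5 was between 1.85 and 3.06 times higher than Pecam1 in every library. Several tight junction genes came next, within a narrower band. F11r, which encodes JAM-A, stood at 119 ± 15 RPKM. Cldn5, the main claudin of ECs, stood at 93.0 ± 59.6 RPKM and Esam at 73.0 ± 17.2 RPKM. Tjp1, which encodes ZO-1, stood at 48.3 ± 6.13 RPKM. The other JAM genes and occludin were far lower. Jam2 (JAM-B) was at 13.7 ± 3.80 RPKM and Jam3 (JAM-C) at 5.21 ± 0.664 RPKM. Ocln, which encodes occludin, was the lowest at 0.877 ± 0.719 RPKM, in place 12594 of the tested genes.

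Most neighbours in this order were separated in all 16 libraries. The exceptions were F11r with Cldn5 and Cldn5 with Esam, where the higher gene on average was higher in 8 of 16 libraries. These orders were set by the isolation: Cldn5 was above F11r and Esam in isolations 1 and 2 and below both in isolations 3 and 4. A TPM scale, which sets each gene's length-corrected count against the sum over all genes, gave the same order of the 9 genes.

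**Figure D1:**
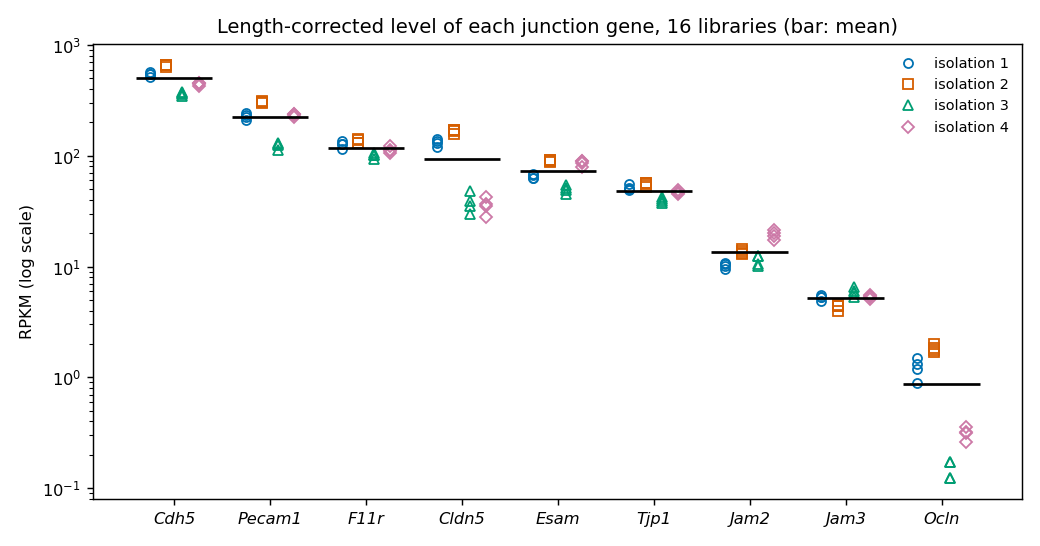
Length-corrected level of each junction gene (RPKM, logarithmic axis) in the 16 libraries, with colour and marker for the isolation and a bar at the mean of 16. Cdh5 lies at the top with a mean of 501 RPKM and Ocln at the bottom with 0.877 RPKM, and the points of Cldn5 and Ocln split into a high pair (isolations 1 and 2) and a low pair (isolations 3 and 4).

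The isolation made more difference to these genes than genotype or ligand did. Between the highest and the lowest isolation the log2 ratio was 0.43 to 3.64 over the 9 genes, while no fitted log2 fold change between groups exceeded 0.26 in size. Cldn5 averaged 187 CPM in isolation 1, 235 CPM in isolation 2, 53.9 CPM in isolation 3 and 50.5 CPM in isolation 4, a ratio of 4.65 between the highest and the lowest. Ocln differed most, with a ratio of 12.4, and its libraries held 54 to 129 counts in isolations 1 and 2 against 8 to 23 counts in isolations 3 and 4. For both genes every library of the first pair of isolations lay above every library of the second pair. Across all tested genes the median of this ratio was 1.37 and its 90th percentile 3.01, so Cldn5 and Ocln were beyond the 90th percentile and the other members were not.

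Among the other members, Pecam1 differed 2.47-fold between isolations, Jam2 1.90-fold, Esam 1.81-fold and Cdh5 1.81-fold. Tjp1 (1.38-fold), Jam3 (1.37-fold) and F11r (1.34-fold) lay close to the median of all genes. Isolation 2 had the highest mean for 7 of the 9 genes, whereas Jam2 peaked in isolation 4 and Jam3 in isolation 3. Isolation 3 was the lowest for Cdh5, Pecam1, Esam, Ocln, Tjp1 and F11r. In that isolation the endothelial markers also had their lowest sums (1622 to 1695 CPM), and in isolation 2 their highest (3169 to 3269 CPM). Epithelial markers summed to 184 to 231 CPM in isolation 1, 169 to 185 CPM in isolation 2, 118 to 143 CPM in isolation 3 and 63.0 to 74.9 CPM in isolation 4. Cdh1 reached no more than 62 counts in a library. Mesothelial markers summed to 206 to 340.4 CPM in isolation 1, with the lowest sums in its KO libraries, to 3.81 to 6.73 CPM in isolation 2, to 157 to 173 CPM in isolation 3 and to 24.9 to 29.8 CPM in isolation 4. The part of these other cell types in the differences between isolations was not tested, and in bulk RNA fewer cells of a type cannot be told apart from less RNA per cell.

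The genes whose profiles over the 16 libraries lay closest to each member were found by the root mean square (RMS) difference of centred log2 CPM. These 16 libraries share 4 isolations, so the likeness mainly reflects the isolations. Cdh5 was closest to Mmrn2 (RMS 0.0471), which encodes an endothelial matrix protein, and then to Carmil1 (RMS 0.0553). Pecam1 was closest to Egfl7 (RMS 0.0967), a secreted endothelial factor, and Adcy4 (RMS 0.103). Cldn5 was closest to Sh3gl3 (RMS 0.181) and Nipal1 (RMS 0.188), and Ocln to Cftr (RMS 0.233), a chloride channel known from epithelia, and Igfbp5 (RMS 0.323). Within the 9 genes, the RMS difference was 0.104 between Tjp1 and F11r, 0.521 between Cldn5 and Ocln and 1.53 between Ocln and Jam3. The RMS difference also depends on the spread of each gene. The SD of log2 CPM was 0.182 for Tjp1, 0.179 for F11r, 1.03 for Cldn5 and 1.39 for Ocln. The Pearson correlation over the 16 libraries was 0.835 for Tjp1 with F11r, 0.949 for Cldn5 with Ocln and -0.749 for Ocln with Jam3.

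The first comparison asked what sENG(M):BMP9 changed in Ctrl cells, which have cell surface endoglin. Pecam1 rose and F11r fell, each by less than 10%, and the other 7 junction genes did not pass the test. Thus 2 of 9 were called, beside 9.69% of all tested genes, with 1 higher (beside 5.86%) and 1 lower (beside 3.83%). An unadjusted p under 0.05 was reached by 3 of 9, beside 19.6% of all tested genes. Of the 9, 6 moved in the same direction in all 4 isolations (1 higher and 5 lower), beside 26.7% of all tested genes. No member had groups that did not overlap, beside 4.01% of tested genes. The median log2 fold change was -0.07 over the 9 and -0.01 over all tested genes.

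VE-cadherin, the adhesion receptor of endothelial adherens junctions, is encoded by Cdh5 (chr8:104828257-104871143, plus strand, 12 exons in the reference annotation of GRCm39). Cdh5 CPM in isolations 1 to 4 was 2148, 2758.5, 1449 and 1795 with PBS and 2311, 2671, 1543 and 1867 with sENG(M):BMP9. It was higher with ligand in 3 isolations and lower in isolation 2, and the ranges overlapped almost fully. The log2 fold change was 0.05 (SE 0.0309, 95% interval -0.01 to 0.12, adjusted p = 0.412), which corresponds to at most 8.39% more and 0.933% less.

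PECAM-1 is an adhesion and signalling receptor of the lateral border, encoded by Pecam1 (chr11:106545043-106641454, minus strand, 16 exons). In isolations 1 to 4, Pecam1 CPM was 1303, 1877, 703 and 1405 with PBS, and 1445.5, 1947, 791 and 1496 with sENG(M):BMP9. Every isolation was higher with ligand, although the isolations themselves spread so far apart that the groups overlapped. The rise was 8.29% (log2 fold change 0.11, SE 0.0330, 95% interval 0.05 to 0.18, adjusted p = 0.0314 by edgeR's quasi-likelihood test). This call did not hold without isolation 1 (log2 0.10, adjusted p = 0.186), without isolation 3 (0.10, adjusted p = 0.195) or without isolation 4 (0.12, adjusted p = 0.0662).

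JAM-A, a homophilic adhesion molecule of tight junctions, is encoded by F11r (chr1:171265103-171292171, plus strand, 10 exons). F11r CPM was 340.4, 372, 279 and 298 with PBS and 305, 345, 249 and 279.6 with sENG(M):BMP9 in isolations 1 to 4. It was lower with ligand in every isolation, and again the groups overlapped. The fall was 8.6% (log2 fold change -0.13, SE 0.0352, 95% interval -0.20 to -0.06, adjusted p = 0.0220). Without isolation 1 the adjusted p was 0.121 (log2 -0.125), without isolation 2 it was 0.0887 (-0.136) and without isolation 3 it was 0.102 (-0.119).

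Claudin-5 forms the strands of endothelial tight junctions and is encoded by Cldn5 (chr16:18595597-18597012, plus strand, a single exon). Cldn5 CPM was 186, 239.7, 55.6 and 49.97 with PBS and 169.9, 223, 42.0 and 39.9 with sENG(M):BMP9. Each isolation was lower with ligand, and the difference between isolations was many times larger. The estimate was 14.1% lower (log2 fold change -0.22, SE 0.0700, 95% interval -0.37 to -0.07), with an adjusted p of 0.0562. Cldn5 passed the threshold without isolation 2 (log2 -0.267, adjusted p = 0.0360), and in 5 of the 7 alternatives that kept all isolations.

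Occludin is a membrane protein of tight junctions, encoded by Ocln (chr13:100633015-100689226, minus strand, 9 exons). Ocln CPM was 6.37, 8.47, 0.72 and 1.33 with PBS and 4.99, 7.70, 0.52 and 1.10 with sENG(M):BMP9. These are 98, 129, 12 and 22 counts against 84, 115, 9 and 19 counts. All 4 isolations were lower with ligand, but at this depth the interval was wide (log2 fold change -0.26, 95% interval -0.59 to 0.07, adjusted p = 0.415).

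ZO-1, the cytoplasmic scaffold encoded by Tjp1 (chr7:64945913-65177529, minus strand, 27 exons), had the smallest estimate of the 9. Tjp1 CPM was 388, 446, 305 and 363 with PBS and 433, 407, 296 and 381 with sENG(M):BMP9, and it was higher with ligand in 2 isolations and lower in the other two. The 95% interval of its log2 fold change ran from -0.08 to 0.11 (adjusted p = 0.928). In the annotation, other genes on the same strand overlap the spans of Tjp1 and Jam2. Genes on the opposite strand overlap the spans of Cdh5, Ocln, Tjp1, Jam2, Jam3 and F11r, among them the protein-coding Atp5pf at Jam2. These spans include introns, and overlap of exons was not examined. The strand setting of the counting was not given either, so whether reads of these other genes were counted for the members is not known.

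The remaining immunoglobulin-like genes did not pass the test. Esam (chr9:37439374-37449615, plus strand, 7 exons), whose product is an adhesion molecule of endothelial tight junctions and platelets, had 180.0, 257, 139.9 and 247 CPM with PBS and 179.8, 253, 129.5 and 226 CPM with sENG(M):BMP9. It was lower in all 4 isolations, by as little as 0.001 on the log2 scale in isolation 1 and by as much as 0.134 in isolation 4 (log2 fold change -0.07, adjusted p = 0.347).

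JAM-B is a ligand of JAM-C and of integrins, encoded by Jam2 (chr16:84571011-84622816, plus strand, 9 exons). Jam2 CPM was 64.7, 87.6, 75.5 and 129 with PBS and 58.0, 80.2, 74.9 and 122 with sENG(M):BMP9. It was lower in each isolation, by little in isolation 3 (log2 fold change -0.09, 95% interval -0.21 to 0.03, adjusted p = 0.424). Jam3 (chr9:27008680-27066717, minus strand, 9 exons), which encodes its partner JAM-C, had 17.1, 14.2, 18.5 and 16.3 CPM with PBS and 17.8, 14.1, 21.1 and 17.6 CPM with ligand. Only isolation 2 was lower with ligand for Jam3 (log2 fold change 0.09, 95% interval -0.05 to 0.23, adjusted p = 0.554).

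**Figure D2:**
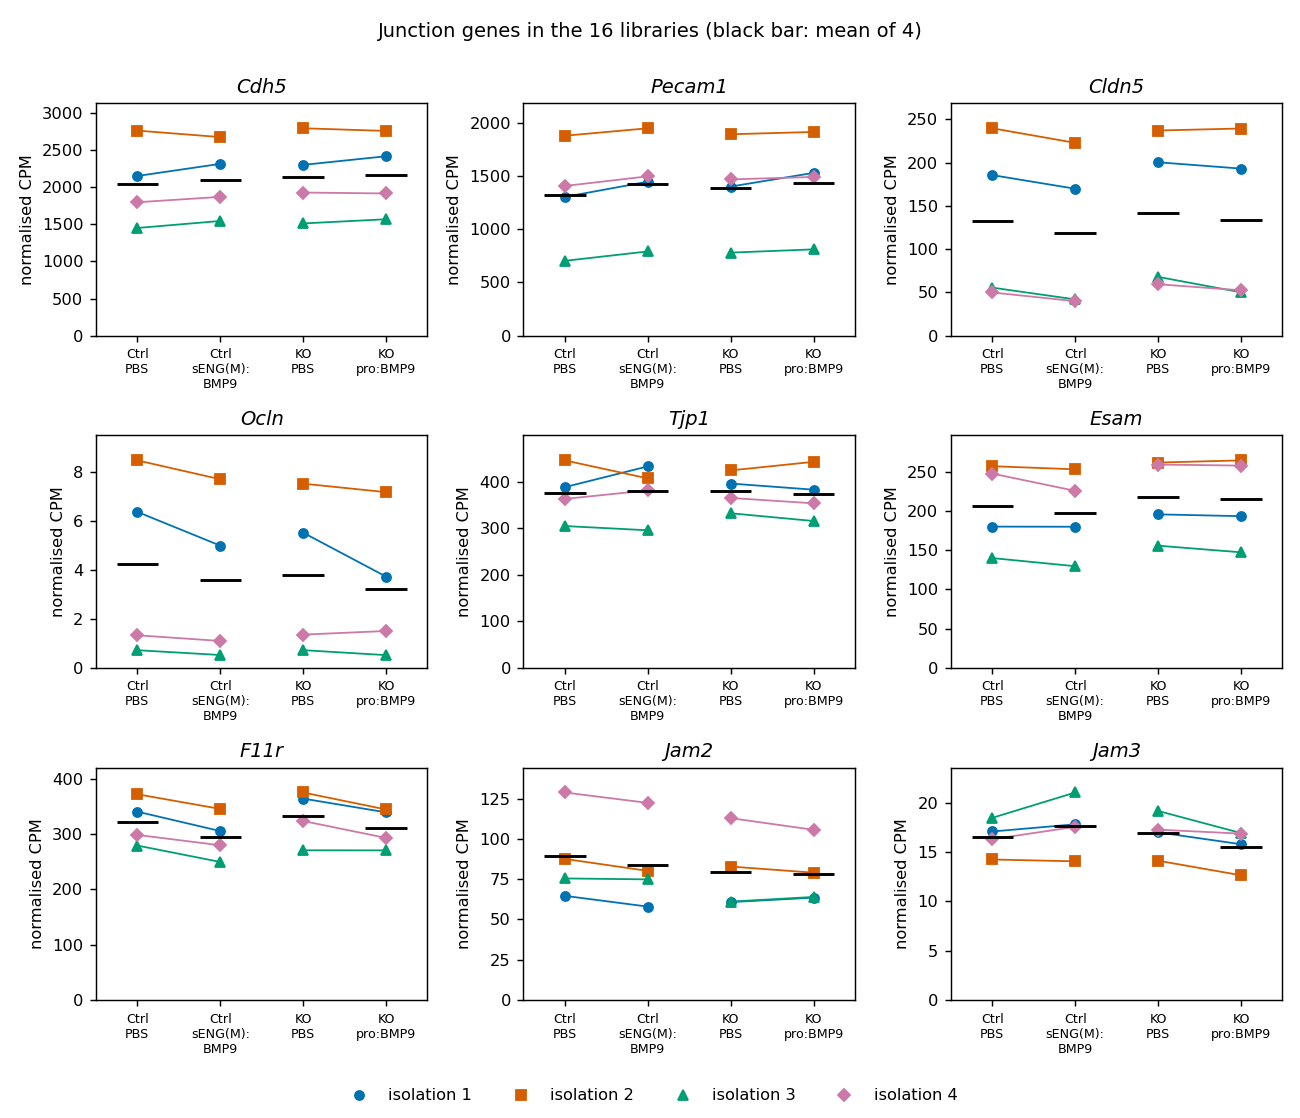
TMM-normalised CPM of each junction gene in the 16 libraries, 1 panel per gene with its own axis from 0, in the 4 groups. Lines join the PBS and ligand libraries of 1 isolation and black bars mark group means of 4 libraries: Pecam1 lines rise and F11r lines fall in all 4 isolations of the Ctrl cells, while the isolations lie much farther apart than the groups.

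The bases before the transcription start of F11r, the gene that fell, and of Cldn5, which had the largest estimate among the well-counted members, are shown to put these genes beside their flanking sequence. Both are from RefSeq on GRCm38.p6, an older build than that of the counts, and are 250 bases long. The windows were searched on both strands for GGCGCC, a GC-rich element of the kind bound by BMP-responsive SMADs, and for CCGGAA and AGGAAG, both forms of the core bound by ETS factors. Capitals mark a match.
F11r, chr1:171437311-171437560, plus strand: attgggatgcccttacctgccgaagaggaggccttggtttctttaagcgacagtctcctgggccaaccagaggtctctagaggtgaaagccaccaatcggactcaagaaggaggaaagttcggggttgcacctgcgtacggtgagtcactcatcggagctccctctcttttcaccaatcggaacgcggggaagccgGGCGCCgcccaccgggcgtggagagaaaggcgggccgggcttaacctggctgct
Cldn5, chr16:18776597-18776846, plus strand: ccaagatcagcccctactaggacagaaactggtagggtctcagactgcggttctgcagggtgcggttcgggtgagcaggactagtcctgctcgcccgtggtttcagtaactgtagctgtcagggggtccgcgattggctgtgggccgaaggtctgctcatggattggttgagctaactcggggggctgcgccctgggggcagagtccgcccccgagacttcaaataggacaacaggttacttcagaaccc

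The F11r window held 1 GGCGCC, whose first base lies 54 bases before the start, and the Cldn5 window held none of the 3 motifs. Of 27025 RefSeq promoters, 9.54% held GGCGCC in the same length, 12.2% held CCGGAA and 29.2% held AGGAAG. The corresponding windows of Ocln and Tjp1, the other members with an entry, held 1 CCGGAA and no match, respectively. A match describes these letters and not a bound site.

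In KO cells, in which Eng had been deleted but some Eng reads remained, the question was what pro:BMP9 changed. None of the 9 junction genes passed edgeR's quasi-likelihood test, beside 5.59% of all tested genes, although 2 of the 9 had an unadjusted p under 0.05 (14.1% of all tested genes). DESeq2 with the same block also called 0. Without a filter on low counts Cldn5 was called. Cldn5 and F11r were called after steps of the kind the study names (quantile normalisation, batch removal by ComBat, then DESeq2), with the isolation taken as batch. All 4 isolations moved in one direction for 3 of the 9, beside 23.7% of all tested genes, and groups did not overlap for none of the 9, beside 2.67%. The median log2 fold change was -0.03 over the 9 genes.

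F11r CPM was 364, 375, 271 and 324 with PBS and 339, 344, 270.4 and 293 with pro:BMP9. It was lower with ligand in all 4 isolations, by almost nothing in isolation 3 (log2 fold change -0.09, SE 0.0352, 95% interval -0.17 to -0.02, adjusted p = 0.180). Pecam1 CPM was 1399.5, 1891, 779.8 and 1467 with PBS and 1528, 1912, 810.3 and 1489.7 with pro:BMP9. It was higher in all 4 isolations, mostly in isolation 1 (log2 fold change 0.06, 95% interval -0.01 to 0.12, adjusted p = 0.520).

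Cldn5 in KO cells had 200.45, 237, 68.0 and 59.5 CPM with PBS and 193, 239, 50.15 and 52.5 CPM with pro:BMP9. It was lower in isolations 1, 3 and 4 and not in isolation 2 (log2 fold change -0.15, 95% interval -0.30 to -0.01, adjusted p = 0.317). Without isolation 3 the estimate was -0.07. Ocln CPM was 5.52, 7.52, 0.72 and 1.36 with PBS and 3.73, 7.17, 0.52 and 1.5 with pro:BMP9, so that isolation 4 was higher and the others lower (log2 fold change -0.23, 95% interval -0.57 to 0.11, adjusted p = 0.641).

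Jam3 went from 17, 14.1, 19.2 and 17.3 CPM with PBS to 15.8, 12.7, 16.9 and 16.9 CPM with pro:BMP9. Its level was lower with ligand in each isolation (log2 fold change -0.12, 95% interval -0.26 to 0.02, adjusted p = 0.490). The estimates for Cdh5 (0.02), Esam (-0.02), Tjp1 (-0.03) and Jam2 (-0.01) were small, and their 95% intervals lay between -0.13 and 0.11 on the log2 scale. For Cdh5 the interval corresponds to a change between 2.79% lower and 6.36% higher.

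KO and Ctrl cells were then compared without ligand. None of the 9 junction genes passed edgeR's quasi-likelihood test, beside 0.0191% of all tested genes (3 genes in all), and DESeq2 with the block also called none of the 9. Of the 9, 5 had an unadjusted p under 0.05, beside 6.82% of all tested genes, and the estimates of 7 were above 0. Esam, Pecam1 and Cdh5 were higher in KO cells in all 4 isolations and Jam2 was lower in all 4, beside 15.2% of all tested genes with all isolations in one direction. For no member did the groups lie apart, beside 1.08% of all tested genes.

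Jam2 CPM in KO cells with PBS was 60.8, 82.9, 61.1 and 112.9, against the 64.7, 87.6, 75.5 and 129 CPM of Ctrl cells. It was 10.9% lower by the fit (log2 fold change -0.17, SE 0.0552, 95% interval -0.28 to -0.05, adjusted p = 0.511), and the groups overlapped. Esam CPM in KO cells was 195.6, 262, 156 and 259, each slightly above the Ctrl library of its isolation (log2 fold change 0.09, 95% interval 0.01 to 0.17, adjusted p = 0.640). Cdh5 CPM was 2298, 2789.6, 1509.9 and 1925 (log2 fold change 0.07, adjusted p = 0.707).

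Pecam1 differed by 0.08 (adjusted p = 0.658) and Cldn5 by 0.15 (adjusted p = 0.707) on the log2 scale. For Pecam1 this was an increase in each isolation, and for Cldn5 in all but isolation 2. The intervals of the remaining members included 0: Tjp1 from -0.08 to 0.12, F11r from -0.03 to 0.12, Jam3 from -0.11 to 0.17 and Ocln from -0.47 to 0.19.

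With ligand, KO cells that had received pro:BMP9 were set beside Ctrl cells that had received sENG(M):BMP9. None of the 9 genes passed the test of edgeR, beside 0.255% of all tested genes, while 4 of the 9 had an unadjusted p under 0.05 (9.27% of all tested genes) and DESeq2 with the block called none. Without a filter on low counts Cldn5 was called, and with quantile normalisation, ComBat and DESeq2 Cldn5 and Esam were. These 2 genes had the smallest p-values of the 9. The groups overlapped for every member, and lay apart for 0.79% of all tested genes.

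Esam CPM was 193, 264, 147 and 258 in KO cells with pro:BMP9, above the 179.8, 253, 129.5 and 226 CPM of Ctrl cells with sENG(M):BMP9 in each isolation. The difference was 9.82% (log2 fold change 0.14, SE 0.0363, 95% interval 0.06 to 0.21, adjusted p = 0.115). Cldn5, at 193, 239, 50.15 and 52.5 CPM against 169.9, 223, 42.0 and 39.9 CPM, was also higher in each isolation (log2 fold change 0.22, SE 0.0701, 95% interval 0.07 to 0.37, adjusted p = 0.220). Jam3 was lower in each isolation (log2 fold change -0.18, 95% interval -0.32 to -0.04, adjusted p = 0.358).

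F11r was higher in 3 of 4 isolations (log2 fold change 0.08, adjusted p = 0.453) and Cdh5 in 4 of 4 (0.04, adjusted p = 0.771). Jam2 (-0.09), Ocln (-0.11), Pecam1 (0.02) and Tjp1 (-0.02) differed in direction between isolations. The comparison shares its KO pro:BMP9 and Ctrl sENG(M):BMP9 libraries with the ligand comparisons above, so the values are not independent of those.

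Medians of other cell types' marker lists lay below 0 in KO cells in several cases. The median log2 fold change in KO cells was -0.28 with PBS and -0.30 with ligand over 5 fibroblast markers, -0.18 and -0.27 over 6 mural markers, and -0.24 and -0.20 over 3 mesothelial markers. Dcn, a fibroblast proteoglycan, was lower by 0.61 in both comparisons (edgeR adjusted p = 0.0160 with PBS and 0.00835 with ligand). With PBS this held in 3 isolations and not in isolation 2, which had 86 Dcn counts in Ctrl and 92 in KO cells. With ligand Dcn was lower in all 4 isolations. The summed fibroblast markers ranged from 73.7 to 637 CPM in Ctrl PBS and from 71.2 to 559 CPM in KO PBS, and the endothelial sums from 1622 to 3169 CPM and from 1677 to 3240 CPM. Their part in the values of the junction genes was not tested.

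**Figure D3:**
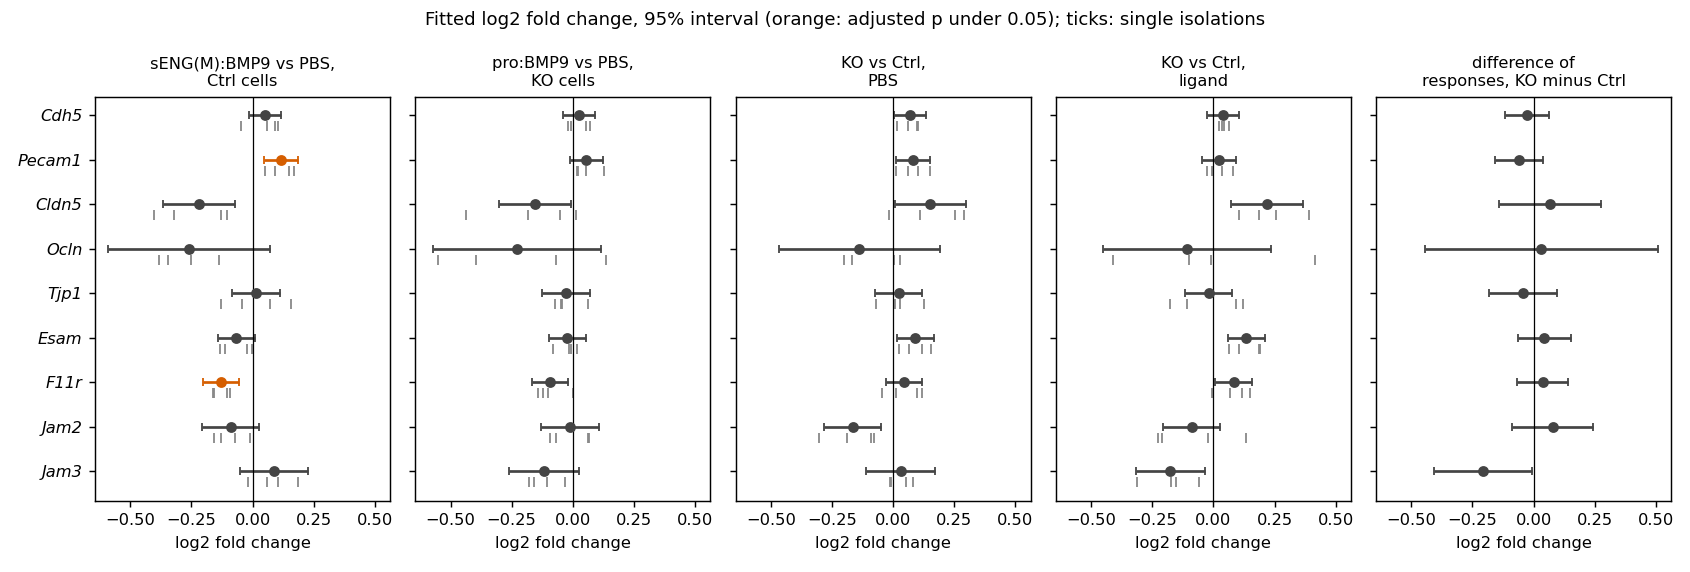
Fitted log2 fold change of each junction gene with its 95% interval in the 5 comparisons, all on the same axis, with ticks for the single isolations in the first 4 panels. Orange marks an adjusted p under 0.05, which only Pecam1 (0.11) and F11r (-0.13) reached, both in the Ctrl cells given sENG(M):BMP9, and the widest intervals are those of Ocln.

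Whether the response to ligand differed between KO and Ctrl cells was tested directly as the difference of both responses. No junction gene passed edgeR's test and neither did any of the 15693 tested genes, beside 565 genes (3.60%) with an unadjusted p under 0.05, and DESeq2 called none of the 9. The difference for Pecam1 was -0.06 (95% interval -0.16 to 0.04) and for F11r 0.04 (95% interval -0.07 to 0.14). The calls of both genes in Ctrl cells and not in KO cells therefore do not show that their responses differed.

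Jam3 had the largest difference of responses among the 9 and was the only one with an unadjusted p under 0.05. It was -0.21 on the log2 scale (SE 0.0949, 95% interval -0.41 to -0.01, adjusted p = 1.00), as Jam3 was higher with ligand in 3 of 4 Ctrl isolations and lower in 4 of 4 KO isolations. Jam3 and Pecam1 were the members whose difference had the same sign in all 4 isolations, beside 13.4% of all tested genes. The differences for Cdh5 (-0.03), Cldn5 (0.07), Esam (0.04), Tjp1 (-0.04) and Jam2 (0.08) had intervals between -0.18 and 0.27. For Ocln the interval ran from -0.44 to 0.51, so that a difference of that size was not detectable at its depth.

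Around the 9 genes, 108 further genes of cell junctions and their control were listed, of which 94 were tested. With sENG(M):BMP9 in Ctrl cells 13 of these rose and 10 fell (24.5%, beside 9.69% of all tested genes). With pro:BMP9 in KO cells 10 rose and 5 fell (16%, beside 5.59%). The lists were chosen with earlier results of these data known, so these shares do not show that junction genes responded more often than others. None of the 94 was called between KO and Ctrl cells or for the difference of responses, by the same edgeR test. Among the 9 junction genes themselves the counts were 2 in Ctrl and 0 in KO cells. For the genes named from here on, the adjusted p was at most 0.0444 in Ctrl cells and 0.0487 in KO cells wherever a rise or fall is stated.

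Of 16 tested cadherin and nectin partners, 3 rose and 1 fell in Ctrl cells (median 0.01) and 3 rose in KO cells. Jup, which encodes plakoglobin and binds the VE-cadherin tail, rose by 0.40 in Ctrl and 0.26 in KO cells on the log2 scale. Ctnnb1 (beta-catenin) rose by 0.24 and 0.16 and Nectin1, a nectin adhesion receptor, by 0.37 and 0.35. Zyx (zyxin) fell by 0.12 in Ctrl cells. Cdh5 itself had estimates of 0.05 and 0.02.

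Among 19 tested tight junction genes other than the 9, 2 rose and 2 fell in Ctrl cells (median -0.01), and 1 rose and 1 fell in KO cells. Tjp1 itself had estimates of 0.02 and -0.03. Cldn12 fell by 0.31 in Ctrl and by 0.23 in KO cells, and Cxadr, an adhesion molecule related to the JAMs, fell by 0.34 in Ctrl cells. Marveld2 (tricellulin) rose by 0.54 in Ctrl cells on counts of 22 to 125, and its call held in 4 of 11 alternatives.

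Of 11 tested genes for JAM-binding scaffolds and integrins, 2 rose in each genotype, among them Itgav (0.36 and 0.34), a subunit of integrins. Pvr, a nectin-like adhesion receptor, was the one gene called among 8 other lateral border molecules, and it fell by 0.39 and 0.28. Of 6 tested gap junction genes, 3 rose and 1 fell in Ctrl cells, and 2 rose and 1 fell in KO cells. Gja4 (connexin 37) went from 10, 30, 11 and 54 counts with PBS to 168, 243, 122 and 423 counts with sENG(M):BMP9, a 9.03-fold rise, and rose 6.87-fold with pro:BMP9. Gja1 (connexin 43) fell by 0.36 and 0.29 on the log2 scale, and Gjc1 rose by 0.26 in Ctrl cells.

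Of 16 tested genes of the CCM complex and Rap1, 1 rose and 2 fell in Ctrl cells and 1 fell in KO cells. Heg1, the receptor that anchors the CCM complex, rose by 0.38 in Ctrl cells, Rapgef2 fell by 0.37 in Ctrl and by 0.27 in KO cells, and Rasip1 fell by 0.21 in Ctrl cells. Of 23 tested genes of actomyosin control, 3 rose and 3 fell in Ctrl cells, and 3 rose and 1 fell in KO cells. Rhob rose by 0.32 and 0.21, Cdc42ep1 by 0.45 and 0.36 and Vav2 by 0.37 and 0.26, while Cdc42ep3 fell by 0.48 and 0.40. Over 11 alternatives the calls of the named genes in Ctrl cells held in 8 or more, except for Marveld2 (4) and Zyx (6). In KO cells they held in 7 or more, except for Cldn12 (5).

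**Figure D4:**
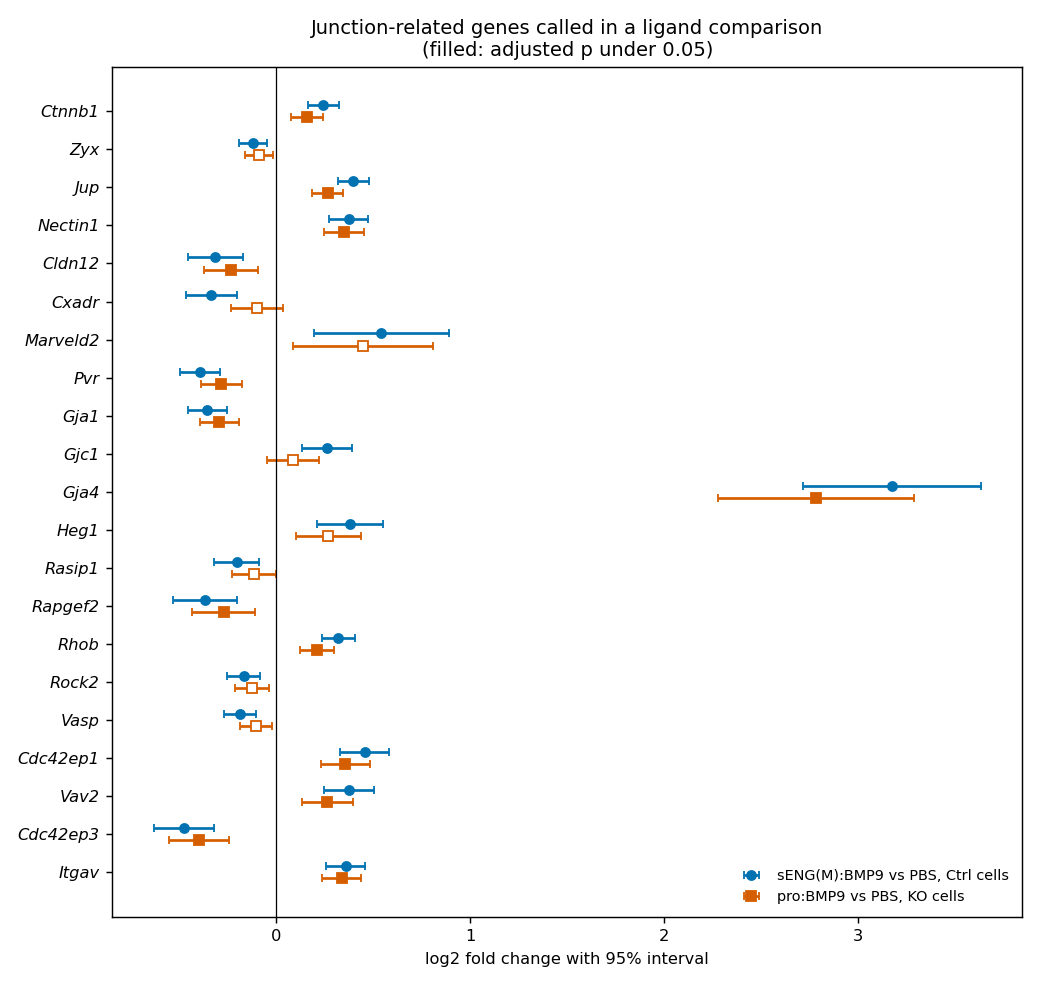
Log2 fold change with its 95% interval for 21 of the junction-related genes called with ligand in Ctrl cells (circles) and the same genes in KO cells (squares), where a filled symbol marks an adjusted p under 0.05. Gja4 stands far to the right at 3.17 and 2.78, and the other genes drawn lie between -0.48 and 0.54, with the same sign in both genotypes.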

How the data were processed

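RNA sequencing of MLECs was analysed in 16 libraries, 4 for each of 4 groups. The authors deposited raw counts of reads per gene with the length of each gene. According to the submitters' processing notes, reads were aligned with HISAT2 2.0.5 to GRCm39 and counted with featureCounts 1.5.0-p3; DESeq2 1.26.0 is also named there, but no normalised value was used. The library kit was stranded, and the strand setting of the counting and the annotation release were not given in the sources used here.

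Counts were filtered with filterByExpr (minimum count 10, minimum total 15), scaled by TMM and tested with edgeR 4.0.16 (limma 3.58.1, R 4.3.3) by the quasi-likelihood test over all 15693 genes and 16 libraries, with group and isolation in the model and Benjamini-Hochberg adjustment at 0.05. All p-values in the text that are named as adjusted come from this fit unless another tool is named. CPM and RPKM used the TMM library sizes, and differences within an isolation used log2 CPM with a prior count of 2. Libraries with the same replicate number come from the same isolation, and the 4 isolations from 4 independent mice, so the isolation was a block: deviations from the group means correlated at 0.670 to 0.805 between libraries of the same number and at -0.719 to 0.324 between others. No 2 libraries of a group agreed within sampling noise. The scripts were tested on simulated counts.

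All 9 genes were named. From each list of related genes, up to 4 called genes were named by smallest adjusted p, and the closest profiles were the 2 with the smallest RMS difference. The members and lists were chosen with earlier results of these data known. Alternatives were the fit without the block, DESeq2 1.42.0, RLE size factors, 2 other filters, only the 8 libraries compared, quantile normalisation with ComBat (sva 3.50.0) and DESeq2, and leaving out each isolation. The study does not name the batch it gave to ComBat. The isolation was used here, so the ComBat alternative need not be the same as the study's procedure. Some called genes of these lists are not reported here. A promoter sequence was matched for 4 of the 9 genes. Exons are those of the GENCODE reference transcript on GRCm39, whose release may differ from that of the counts.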

Additional observations from a re-analysis of the deposited data

How the results depend on the processing

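The number of junction genes called with sENG(M):BMP9 in Ctrl cells was 2. Without the replicate block, which ignores the pairing of libraries from the same isolation, it was 0, and leaving out 1 isolation at a time gave 0 to 2. It was 3 with DESeq2 and the block, with RLE size factors, without the filter, and with quantile normalisation, ComBat and DESeq2, where Esam was called (adjusted p = 0.0488), and 2 with the other filter and with only the 8 libraries compared. Without a filter on low counts 1 junction gene was called with pro:BMP9 in KO cells and 1 between KO and Ctrl cells with ligand; with quantile normalisation, ComBat and DESeq2 it was 2 and 2. The count between KO and Ctrl cells with PBS and that for the difference of responses stayed at 0 in every alternative run. The call of Pecam1 was also lost with only the 8 libraries compared (adjusted p = 0.0520) and with quantile normalisation, ComBat and DESeq2 (adjusted p = 0.101), and that of F11r in the fit without the block. Over all genes, calls with sENG(M):BMP9 fell from 1521 to 167 without the block and rose to 2228 with quantile normalisation, ComBat and DESeq2. With pro:BMP9 they went from 878 to 91 and to 1406. Between KO and Ctrl cells, 3 calls with PBS became 204 without the filter and 176 with quantile normalisation, ComBat and DESeq2. In the same order, 40 calls with ligand became 517 and 542. The paper reported fewer genes with ligand than this ComBat alternative called, and its procedure need not be the same. No cause of these changes in the number of calls was tested.

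Some directions changed, none of them for a difference that had passed the test. With quantile normalisation, ComBat and DESeq2, Cdh5 and Tjp1 with sENG(M):BMP9 were at -0.0116 and -0.00337 and the Cdh5 difference of responses at 0.0264. Leaving out single isolations, the estimates ranged for Tjp1 from -0.0376 to 0.0657 with sENG(M):BMP9, from -0.0118 to 0.0552 between KO and Ctrl cells with PBS, from -0.0706 to 0.0318 between them with ligand, and from -0.126 to 0.0134 for the difference. For Jam2 with pro:BMP9 they ranged from -0.0408 to 0.0180. Between KO and Ctrl cells with ligand they ranged from -0.00124 to 0.0325 for Pecam1 and from -0.211 to 0.0442 for Ocln. For the difference they ranged from -0.00470 to 0.0656 for F11r and from -0.0418 to 0.141 for Ocln. Ocln dropped out where 10 counts were required in every library, and the difference of responses could not be fitted with 8 libraries. Its 8 to 23 counts in isolations 3 and 4 limit any statement on Ocln.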
